A study of Mus musculus with 70 samples.

Results

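The EGF receptor family consists of cell surface receptor tyrosine kinases and the growth factors that bind them, and 10 of its genes were described here across all groups of the series. They are the ligand genes Areg (amphiregulin), Ereg (epiregulin), Hbegf (heparin-binding EGF-like growth factor), Tgfa (transforming growth factor alpha), Btc (betacellulin), Epgn (epigen) and Nrg1 (neuregulin 1), and the receptor genes Egfr, Erbb2 and Erbb3. The members were chosen by gene symbol, and each symbol matched 1 entry of the deposited expression table, so that 10 of 21859 genes were taken. The choice was made with earlier results of these data known. The other known genes of the pathway were described from lists of shedding factors, feedback inhibitors and adaptors.

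The ligands are made as membrane-anchored precursors and are released by metalloproteases such as ADAM17, after which they act on the same cell or on its neighbours. A ligand brings receptors together in pairs, and the pairs signal through the RAS, RAF, MEK and ERK cascade among others. ERK signalling in turn raises transcription of several ligand genes in many cell types, a positive loop, and of inhibitors such as Errfi1, a negative one. Areg and Ereg are known for their part in regeneration of the intestinal epithelium, Hbegf and Tgfa are known as mitogens for hepatocytes, and EGFR is abundant in the liver.

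Messenger RNA was sequenced in bulk in 70 libraries of 26 groups, 18 groups with 3 libraries and 8 with 2, from male C57BL/6 mice or their embryos. Doxycycline switched on a constitutively active kinase, either MEK1 from a frog (caMEK1), which drives ERK and a model of oncogene-induced senescence, or human MKK6 (caMKK6), which drives p38 and a model of stress-induced senescence. Mouse embryonic fibroblasts (MEFs) of each genotype were taken without doxycycline (No Dox) at day 2, or with it (Dox, 2 µg/mL in the medium) at days 2, 4 and 7, and the labels describe passages for the untreated cultures alone. Untreated MEFs were taken at day 2 alone, so kinase and time in culture cannot be told apart at days 4 and 7. No MEFs without a kinase transgene were included, so kinase and doxycycline cannot be told apart in changes from untreated cells. In liver and colon of chimeric mice, cells sorted for mCherry carry the induced kinase. Cells sorted for GFP are their neighbours, whose libraries still held some of the transgene, as given below.

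The groups of each tissue were GFP cells of control, caMEK1 and caMKK6 mice without doxycycline, and mCherry and GFP cells of the same 3 genotypes after 7 days of doxycycline in drinking water. Control mice carried the colours and received doxycycline without an active kinase. The caMEK1 mice drank 0.2 mg/mL doxycycline and the other genotypes 2 mg/mL, in sucrose water, so kinase and dose cannot be told apart between the kinases or between caMEK1 and control mice. The ages of the mice and the cell type that can switch on the transgene are not given in the sources used here. Liver cells were enriched for hepatocytes by slow spins and scatter gates, and colon cells came from crypt preparations. Whether MEF replicates came from separate cultures is not stated, so p-values there measure the spread between libraries, which may be technical.

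Depth, as the number of reads behind the deposited values, lay between 10888915 and 17763531 a library in MEFs, 9267318 and 14534256 in liver, and 6671204 and 17396973 in colon. The kinase transgenes matched their labels, at 1008 to 1169 FPKM (a read count scaled by exon length and library depth) in caMEK1 MEFs at day 2 against 1.94 to 4.04 FPKM without doxycycline, although 5 of 12 caMKK6 MEF libraries also held 11 to 16.5 FPKM of the MEK1 transgene. In liver the MEK1 transgene stood at 5.55 to 14.1 FPKM in caMEK1 mCherry cells, and GFP cells of the same mice held 0.942% to 4.28% of it. In colon, GFP cells of caMEK1 mice held 12.3 and 28.7 FPKM of it, 4.27% and 12.2% of that in their mCherry cells. GFP cells of caMKK6 colons held 116, 8.50 and 10.6 FPKM of the MKK6 transgene, 4.37%, 0.527% and 0.876% of that in their mCherry cells. All 7 fibroblast markers were detected in MEFs, all 6 hepatocyte markers in every liver group and all 6 epithelial markers in every colon group. The liver sorts also held all 5 macrophage and all 5 endothelial markers at 1 FPKM or more in nearly every group, so these cells were not absent from them. In bulk RNA, fewer cells of a type and less RNA per cell cannot be told apart.

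Areg, Ereg and Btc lie together in the mouse genome, in a stretch of 375.5 kb that also holds Epgn (GRCm38, chr5:91027464-91402994, GENCODE M21 annotation). Areg occupies chr5:91139599-91148432 and Ereg chr5:91074622-91093646 on the forward strand, and Btc chr5:91357261-91402994 on the reverse strand. Egfr occupies chr11:16752203-16918158, Erbb2 chr11:98412470-98437716, Erbb3 chr10:128567523-128589652 and Tgfa chr6:86195223-86275719. The 250 bases upstream of the RefSeq start site (GRCm38.p6) are shown for the pair of neighbouring ligand genes with the largest rises in caMEK1 MEFs, and for the receptor gene that fell there. Of the members, 6 of 10 had an entry in the RefSeq promoter table; those without one were Ereg, Hbegf, Nrg1 and Erbb3. Capitals mark the motifs searched on both strands: a cAMP response element (TGACGTCA), an AP-1 site (TGANTCA), an ETS site (CCGGAA), a GC box (GGGCGG) and a TATA box (TATAAA). The windows lie at chr5:91139349-91139598 (+) for Areg, chr5:91402995-91403244 (-) for Btc and chr11:16751953-16752202 (+) for Egfr.
Areg: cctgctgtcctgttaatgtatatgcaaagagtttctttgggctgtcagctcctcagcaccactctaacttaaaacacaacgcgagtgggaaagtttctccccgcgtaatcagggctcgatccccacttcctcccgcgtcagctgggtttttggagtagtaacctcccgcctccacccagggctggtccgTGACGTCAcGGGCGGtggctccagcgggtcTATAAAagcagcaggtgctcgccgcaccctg
Btc: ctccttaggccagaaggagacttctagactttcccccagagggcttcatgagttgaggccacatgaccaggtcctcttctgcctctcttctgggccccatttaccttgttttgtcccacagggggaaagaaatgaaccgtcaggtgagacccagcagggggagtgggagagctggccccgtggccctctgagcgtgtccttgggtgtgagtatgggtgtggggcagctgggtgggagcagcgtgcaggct
Egfr: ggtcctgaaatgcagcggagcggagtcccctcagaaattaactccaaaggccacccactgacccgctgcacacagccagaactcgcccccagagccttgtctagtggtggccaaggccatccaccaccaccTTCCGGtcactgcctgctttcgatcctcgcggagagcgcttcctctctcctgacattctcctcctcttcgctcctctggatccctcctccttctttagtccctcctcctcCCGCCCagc

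The Areg window held a cAMP response element that began 61 bases upstream of the start site, a GC box at 52 bases and a TATA box at 31 bases. The Egfr window held an ETS site at 119 bases and a GC box at 9 bases, both on the reverse strand, so that they read as TTCCGG and CCGCCC above. None of these letters were in the Btc window. Among 32851 promoter windows of the same length, 1.55% held the cAMP response element, 6.75% the AP-1 site, 12.0% the ETS site, 32.7% the GC box and 12.4% the TATA box. A match describes the sequence and shows no binding.

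Before any kinase was induced, the family was expressed in a different pattern in each tissue. In MEFs without doxycycline, Hbegf (30.4 ± 4.20 FPKM, SD, n = 6) and Ereg (17.1 ± 2.42 FPKM) led the ligands, with Egfr at 8.48 ± 0.857 FPKM and Erbb2 at 8.12 ± 0.639 FPKM. In untreated liver, Tgfa was the ligand with the highest level (4.09 ± 0.579 FPKM, n = 9), while Areg, Ereg and Nrg1 averaged under 0.03 FPKM. The receptors there were Egfr (154 ± 32.7 FPKM) and Erbb3 (44.4 ± 14.4 FPKM), a receptor with an impaired kinase that signals through its partner. In untreated colon, Areg (68.6 ± 39.8 FPKM, n = 9) and Hbegf (28.0 ± 12.4 FPKM) led the ligands, and Erbb3 (80.6 ± 11.9 FPKM) and Erbb2 (44.1 ± 7.71 FPKM) the receptors. Erbb2 has no known soluble ligand and serves as the preferred partner of the others.

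In the fit of untreated samples, 9 of the 10 members passed a filter of 1 FPKM in 3 libraries, all but Epgn. Btc passed only through colon libraries and Nrg1 only through MEF libraries. Their excess in those tissues was a condition of being tested, and the counts of these 9 members below are descriptions. Between colon and liver, 7 of these 9 were higher in colon and Egfr was lower, by 3.86 ± 0.10 on the log2(FPKM + 1) scale (estimate ± SE), where 90.5% of all genes tested were called at an adjusted p below 0.05. Between MEF and liver, 5 were higher in MEFs and 4 lower, against 88.2% of genes called. Between MEF and colon, 2 were higher in MEFs and 5 lower, against 85% called; Hbegf and Egfr were not called there, with log2 differences of 0.26 and -0.15. With so many genes called, these shares are near the background. The median over all genes was 0.88 higher in colon than in liver on this scale, and with libraries scaled to a common median the colon excesses of Tgfa (0.56) and Erbb3 (0.89) became deficits of 0.52 and 0.37 below liver. With the same scaling the colon excess of Btc (0.71) was no longer called (0.13, adjusted p = 0.092, in a range of 9.8e-09 to 0.092), and the MEF excess of Hbegf over colon was called (0.46, 0.012, in a range of 0.0021 to 0.29).

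**Figure D1:**
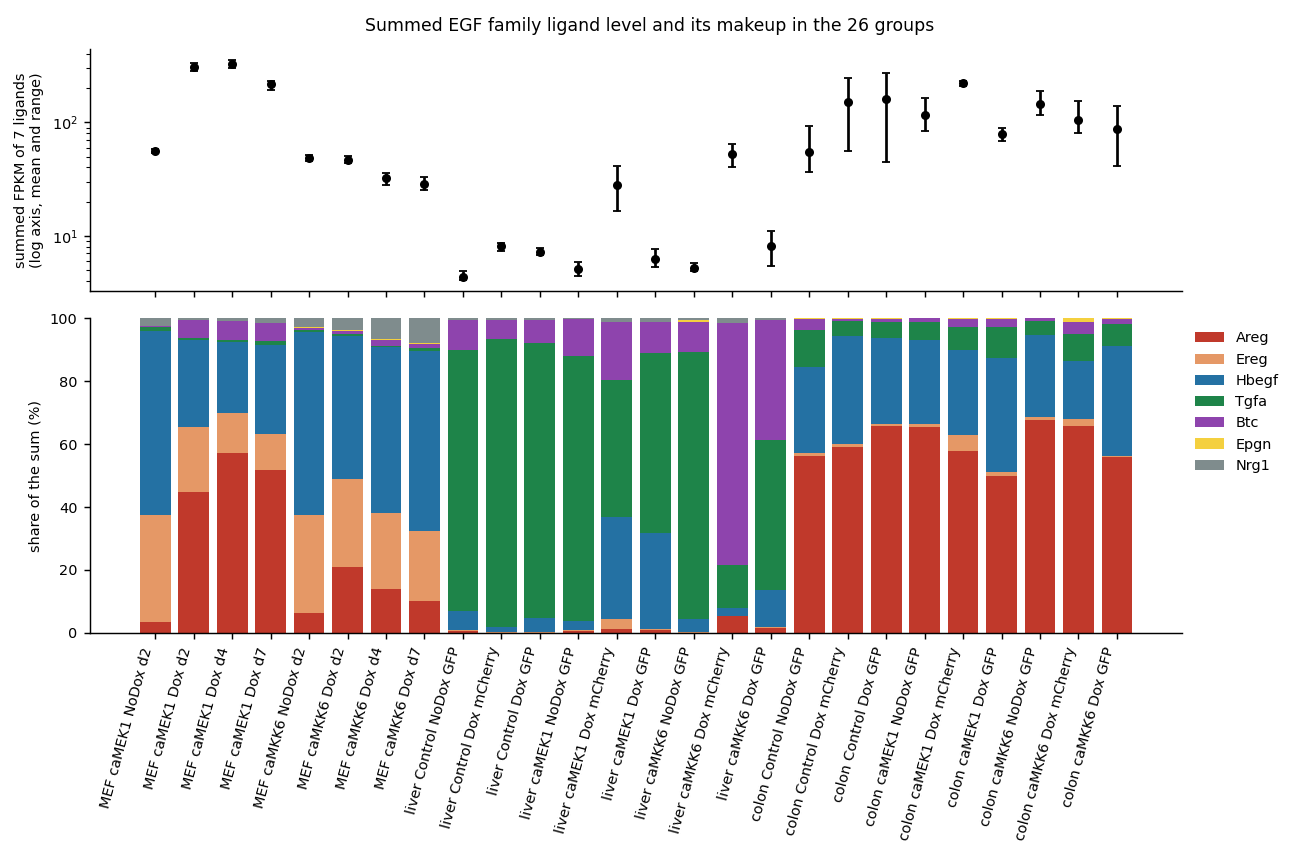
Summed level of the 7 ligand genes (upper panel, FPKM on a log axis, mean with the range of the libraries) and the share of each ligand in that sum (lower panel, percent) for the 26 groups. The sum rose from 56.0 to 307 FPKM at day 2 in caMEK1 MEFs, Tgfa made up most of it in untreated liver, and Btc made up 77.0% of it in caMKK6 mCherry liver cells.

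In MEFs, 8 members passed the filter (1 FPKM in 3 libraries, over 11347 genes) and Epgn and Erbb3 did not. Epgn reached at most 0.238 FPKM, or 6 reads, in any MEF library, and Erbb3 0.804 FPKM. Btc and Tgfa passed only through the caMEK1 libraries on doxycycline, so their change there was a condition of being tested and the counts below are descriptions.

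After 2 days of caMEK1, 5 ligand genes and Erbb2 rose. These 6 of 8 members stood against 39.3% of all genes called, with about as many genes rising (19.5%) as falling (19.8%). Areg was measured at 1.89, 1.53 and 2.61 FPKM without doxycycline and at 125, 151 and 137 FPKM at day 2. Every induced library was far above every untreated one. The log2 fold change was 5.53 ± 0.27 (limma, Benjamini-Hochberg adjusted p = 3.3e-12), and a ratio of mean FPKM values gives 68.4-fold.

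Btc stood at 0.314, 0.265 and 0.234 FPKM without doxycycline and at 16.2, 16.4 and 19.5 FPKM at day 2. The groups were again far apart, from 13 to 21 reads a library to 1090 to 1208 reads. The log2 fold change was 3.85 ± 0.12 (limma, adjusted p = 2.2e-14), a scale on which the change of so low a gene is understated, and the ratio of means was 64.1-fold. Betacellulin binds both EGFR and ErbB4.

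Ereg, the third of the clustered genes, was already expressed at 20.0, 18.9 and 18.2 FPKM and reached 60.6, 77.3 and 53.9 FPKM. Hbegf stood at 29.6, 33.3 and 35.1 FPKM and reached 79.2, 84.8 and 89.0 FPKM. For neither gene did the groups overlap. The log2 fold changes were 1.68 ± 0.15 for Ereg (limma, adjusted p = 1.6e-08) and 1.34 ± 0.16 for Hbegf (adjusted p = 1.3e-06). Tgfa stayed low, at 0.636, 0.811 and 0.652 FPKM against 1.96, 2.37 and 2.44 FPKM, with a log2 fold change of 0.94 ± 0.10 (adjusted p = 4.4e-07).

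Of the receptors, Erbb2 stood at 8.02, 7.64 and 7.87 FPKM and reached 11.4, 11 and 11.2 FPKM, without overlap and with little spread. Its log2 fold change was 0.46 ± 0.08 (limma, adjusted p = 0.00014). Egfr stood at 7.92, 9.28 and 8.53 FPKM against 4.90, 6.01 and 5.42 FPKM at day 2. The groups did not overlap, but the log2 difference of -0.57 ± 0.23 missed the threshold (adjusted p = 0.058). It passed with the replicate number as a block (adjusted p = 0.016), with median scaling and with quantile normalization (both 0.046, in a range of 0.016 to 0.15 over its alternatives). Nrg1, whose product binds ErbB3 and ErbB4 rather than EGFR, was at 1.29 ± 0.139 and 1.5 ± 0.0814 FPKM and was not called (adjusted p = 0.34).

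The ligands followed different courses under sustained caMEK1, measured against untreated cells taken at day 2. At day 4, 7 members rose and 1 fell, against 57.8% of genes called, and at day 7 the same split of 7 and 1 stood against 62.1%. Areg was at 188, 213 and 160 FPKM at day 4, its highest group mean in the series, and at 129, 129 and 82.5 FPKM at day 7. Between days 2 and 7 it was not called (log2 difference -0.30, adjusted p = 0.38). Ereg fell back to 42.3, 43.7 and 36.9 FPKM at day 4 and to 24.9, 26 and 25 FPKM at day 7. From day 2 to day 7 it fell by 1.29 ± 0.15 on the log2 scale (limma, adjusted p = 7.4e-07). At day 7 its excess over untreated cells was 0.39 ± 0.15 (adjusted p = 0.025), a call that was lost without untreated replicate 2 (0.055), untreated replicate 3 (0.071) or induced replicate 2 (0.063), in a range of 0.013 to 0.071 over all alternatives.

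Hbegf declined more slowly, to 70.3, 72.2 and 80.0 FPKM at day 4 and 59.0, 59.0 and 68.8 FPKM at day 7, still above every untreated library. Its fall from day 2 to day 7 was 0.43 ± 0.16 (adjusted p = 0.032), which was lost in 4 of 6 runs with 1 library left out (0.072 to 0.092). Btc peaked at 19.1, 19.4 and 20.4 FPKM at day 4 and fell to 13.7, 11.8 and 12.6 FPKM at day 7, by 0.42 ± 0.12 from day 2 (adjusted p = 0.0064; 0.26 with a pseudocount of 0.1, in a range of 0.0020 to 0.26 over its alternatives). Nrg1 moved the other way, from 1.42, 1.49 and 1.59 FPKM at day 2 to 3.07, 2.88 and 3.27 FPKM at day 7. It rose by 0.70 ± 0.10 between those days (adjusted p = 1.2e-05). Between days 7 and 2, 1 member rose and 3 fell, against 46.8% of genes called.

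Egfr fell at the later times. It was at 2.97, 3.58 and 3.99 FPKM at day 4 and 2.36, 3.87 and 4.62 FPKM at day 7, against 7.92 to 9.28 FPKM in untreated cells. The log2 fold changes were -1.09 ± 0.23 at day 4 (limma, adjusted p = 0.00050) and -1.08 ± 0.23 at day 7 (adjusted p = 0.00047). Between days 2 and 7 it differed by -0.51 (adjusted p = 0.080), which passed with the replicate block (0.026, in a range of 0.026 to 0.35). Erbb2 held its rise, with 11.1, 11.7 and 9.77 FPKM at day 7 (0.42 ± 0.08, adjusted p = 0.00018). Erbb3 was at 0.214 to 0.457 FPKM without and 0.537 to 0.804 FPKM after 7 days of caMEK1, below the filter; without the filter it was called at day 7 (0.33 ± 0.08, adjusted p = 0.0031) and day 4 (0.25, 0.019). Summed fibroblast markers were lower in the caMEK1 libraries on doxycycline (227 to 437 FPKM) than without it (1025 to 1337 FPKM), and their part in these changes was not tested.

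**Figure D2:**
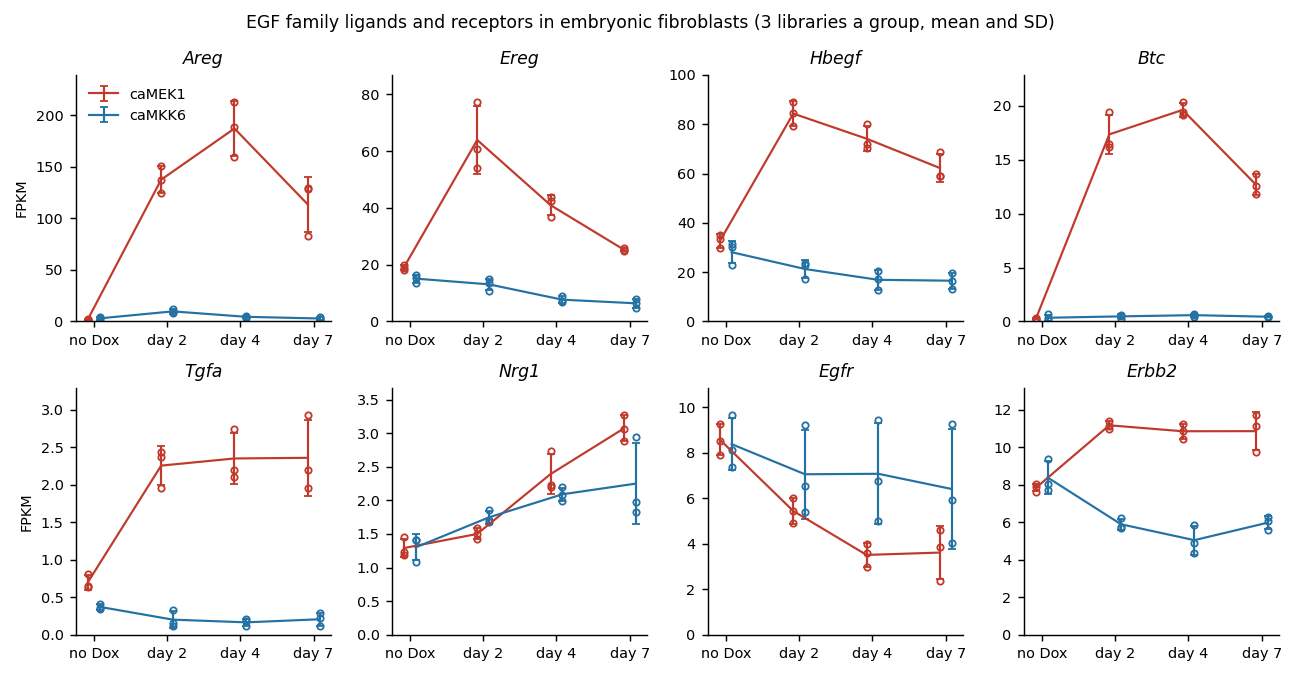
FPKM of 8 members in MEFs without doxycycline (day 2) and after 2, 4 and 7 days with it. Open circles are libraries, lines join group means and bars give the SD (n = 3). In caMEK1 cells (red) Areg stayed above 82 FPKM from day 2 on while Ereg returned to about 25 FPKM and Egfr fell below 5 FPKM at day 7. In caMKK6 cells (blue) Areg peaked near 10 FPKM at day 2.

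Under caMKK6 members moved in both directions, and the shares of members called were near those of all genes. At day 2, 2 members rose and 1 fell, against 39.2% of genes called. Areg stood at 1.17, 3.73 and 4.10 FPKM without doxycycline and at 7.96, 12.1 and 9.20 FPKM at day 2. The groups did not overlap, and the log2 fold change was 1.51 ± 0.27 (limma, adjusted p = 0.00028). The libraries with the MEK1 transgene include untreated replicates 2 and 3 and day 2 replicates 2 and 3. Without those libraries, when each group keeps a lone library assumed to vary like the rest, the log2 fold change was 2.05 (adjusted p = 0.0039, in a range of 0.00014 to 0.0039 over its alternatives). By day 7 Areg was at 2.78, 3.93 and 1.92 FPKM, within the untreated range, and it had fallen by 1.49 ± 0.27 from day 2 (adjusted p = 0.00028).

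Ereg, Hbegf and Erbb2 fell under caMKK6. At days 4 and 7, 1 member rose and 3 fell, against 44.8% and 40.8% of genes called. Ereg went from 13.6, 16.4 and 15.3 FPKM without doxycycline to 7.94, 4.73 and 6.52 FPKM at day 7, a fall of 1.14 ± 0.15 (limma, adjusted p = 5.7e-06). Hbegf went from 31.2, 22.9 and 30.2 FPKM to 19.9, 13.2 and 16.5 FPKM, a fall of 0.74 ± 0.16 (adjusted p = 0.0012). At day 2 Hbegf had missed the threshold (log2 difference -0.39, adjusted p = 0.062), and it passed with the replicate block (0.022, in a range of 0.022 to 0.29). Erbb2 went from 8.05, 9.38 and 7.75 FPKM to 5.77, 5.71 and 6.22 FPKM at day 2 and 6.07, 5.61 and 6.27 FPKM at day 7, without overlap. Its fall at day 2 was 0.44 ± 0.08 (adjusted p = 0.00037; 0.069 without the libraries with the other transgene, in a range of 0.00039 to 0.069 over its alternatives).

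Nrg1 was the member that rose under caMKK6 at all 3 times. It went from 1.08, 1.41 and 1.41 FPKM to 1.83, 2.94 and 1.98 FPKM at day 7 (log2 fold change 0.49 ± 0.10, limma, adjusted p = 0.00072). At day 2 its rise of 0.26 (adjusted p = 0.047) was lost in 5 of 6 runs with 1 library left out, without the filter (0.071) and without the libraries with the other transgene (0.18), in a range of 0.024 to 0.20. Egfr was at 8.11, 7.38 and 9.65 FPKM without doxycycline and 5.93, 4.03 and 9.28 FPKM at day 7, and was not called (log2 difference -0.40, adjusted p = 0.19; -0.66 and 0.027 without day 7 replicate 3, in a range of 0.027 to 0.67). Btc stayed between 0.0982 and 0.649 FPKM in untreated caMKK6 cells and averaged 0.441 FPKM at day 7. Tgfa averaged 0.372 FPKM without doxycycline and 0.201 FPKM at day 2. Neither was called, although Tgfa passed at day 4 with the replicate block (log2 difference -0.24, adjusted p = 0.033 against 0.070) and in 3 other alternatives, in a range of 0.0086 to 0.32. Without the libraries with the other transgene, Btc passed at days 4 (0.50, adjusted p = 0.013, in a range of 0.0051 to 0.43) and 7 (0.39, 0.028, in a range of 0.028 to 0.94). Areg, not called at day 4 (0.53, adjusted p = 0.12), passed there as well without them (1.18, 0.016, in a range of 0.016 to 0.67). From day 2 to day 7, 0 members rose and 2 fell, against 38.2% of genes called; with the block Hbegf passed as well (-0.35, adjusted p = 0.037 against 0.094, in a range of 0.033 to 0.35).

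The difference between the kinases was tested directly in MEFs as caMEK1 change minus caMKK6 change. At day 2, 6 of 8 members had a larger rise with caMEK1 and 0 a smaller one, against 23.5% of genes called. Btc and Tgfa, among the 6, passed the filter only through the caMEK1 libraries on doxycycline, so the counts here are descriptions. The differences were 4.03 ± 0.38 for Areg (limma, adjusted p = 1.5e-07), 3.70 ± 0.17 for Btc (3.0e-11), 1.88 ± 0.21 for Ereg (1.1e-06), 1.73 ± 0.23 for Hbegf (1.1e-05), 1.13 ± 0.15 for Tgfa (8.9e-06) and 0.90 ± 0.12 for Erbb2 (8.4e-06). At day 7 the same 6 were called, against 37.8% of genes, with Areg at 5.21 ± 0.38 (2.3e-09) and Erbb2 at 0.85 ± 0.12 (1.0e-05). Egfr and Nrg1 were not called at either day, although Nrg1 at day 7 (0.34, adjusted p = 0.062) passed without caMKK6 day 7 replicate 2 (0.49, 0.0024) and without caMKK6 untreated replicate 1 (0.42, 0.034), in a range of 0.0024 to 0.46. For Egfr at day 7 the difference was -0.69 ± 0.33 (adjusted p = 0.11), and it passed with the replicate block (0.039, in a range of 0.024 to 0.30).

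As a sum over the 7 ligand genes, caMEK1 MEFs went from 56.0 ± 2.15 FPKM (SD, n = 3) without doxycycline to 307 ± 24.6 FPKM at day 2, 326 ± 25.0 FPKM at day 4 and 219 ± 20.9 FPKM at day 7. Areg made up 3.59% of the sum in untreated cells and 51.7% at day 7, while the share of Hbegf went from 58.3% to 28.4%. In caMKK6 MEFs the sum went from 48.3 to 28.8 FPKM.

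Of the genes that release the ligands or relay and restrain the receptors, 41 of the 47 listed were tested in MEFs. After 2 days of caMEK1, 15 rose and 6 fell, where 19.5% of all genes rose and 19.8% fell. Of 14 feedback inhibitors, 6 rose and 1 fell, led by Errfi1, which blocks the EGFR kinase directly and went from 45.4 ± 3.35 to 244 ± 4.83 FPKM (log2 fold change 2.40 ± 0.15, limma, adjusted p = 7.3e-11). The ubiquitin ligase gene Cblb (1.53), Socs3 (1.33) and the receptor inhibitor Lrig1 (1.18) rose as well. Of 11 shedding factors, 2 rose and 3 fell. Timp3, an inhibitor of the sheddase ADAM17, went from 83.4 ± 7.41 to 19.4 ± 2.73 FPKM (-2.05 ± 0.27, adjusted p = 3.9e-06), and the sheddase gene Adam12 fell by 1.19. Rhbdf2 and Frmd8, whose products support ADAM17, rose by 0.84 and 0.71. Of 16 adaptors, 7 rose and 2 fell. The median log2 fold change of the 41 genes was 0.13, against -0.01 over all genes.

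By day 7 of caMEK1, 21 of the 41 had risen and 7 had fallen, where 62.1% of all genes were called, among them the sheddase gene Adam8, from 2.06 ± 0.395 to 14.5 ± 1.02 FPKM (2.34 ± 0.53, adjusted p = 0.00073), and the adaptor gene Gab2, by 1.18. Under caMKK6 at day 7, 9 rose and 7 fell, against 40.8% of all genes called. Both counts are near the background. Errfi1 was not called there (24.2 ± 2.25 against 27.3 ± 4.51 FPKM, log2 difference -0.16), and the difference between the kinases for Errfi1 was 2.19 ± 0.21 (adjusted p = 7.7e-08).

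In liver, 5 members passed the filter (1 FPKM in 2 libraries, over 10371 genes): Hbegf, Tgfa, Btc, Egfr and Erbb3. Hbegf and Btc passed only through the libraries of the kinase mice on doxycycline, so their rise there was a condition of being tested, and the liver counts below are descriptions from which nothing is read against the share of all genes. Areg, Ereg, Epgn, Nrg1 and Erbb2 did not pass. Levels of all genes differed between liver groups in bulk: with libraries scaled to a common median, the median log2 change moved by -0.28 for caMKK6 mCherry cells, 0.21 for caMEK1 GFP cells, -0.22 for caMKK6 mCherry against GFP cells and 0.31 for caMEK1 against caMKK6 mCherry cells. Scaled values are given beside the calls of members in those comparisons, and values of other pathway genes are unscaled.

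In caMEK1 mCherry cells of the liver, Hbegf and Btc rose, 2 of the 5 members tested, where 27.1% of all genes were called. Hbegf was at 11.8, 10.2 and 5.28 FPKM (807, 522 and 305 reads) in the 3 caMEK1 mice and at 0.167 and 0.135 FPKM in the 2 control mice. No control or untreated liver library exceeded 0.378 FPKM. The log2 fold change was 3.07 ± 0.23 (limma, adjusted p = 4.8e-08), and the ratio of means was 60.2-fold. Btc was at 3.31, 10.7 and 1.46 FPKM against 0.357 and 0.632 FPKM (1.75 ± 0.49, adjusted p = 0.014). That call was lost with voom on recovered reads (0.063), without control replicate 1 (0.11) or 2 (0.062) and without caMEK1 replicate 2 (0.067), in a range of 0.0018 to 0.11 over its alternatives.

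Tgfa was at 9.65, 18.8 and 8.41 FPKM in caMEK1 mCherry cells against 8.12 and 6.57 FPKM in control mCherry cells, where it missed the threshold (0.60 ± 0.24, adjusted p = 0.070). It passed with median scaling (0.62, 0.037), with quantile normalization (0.017), without caMEK1 animal 3 (0.81, 0.021) and against untreated GFP cells (1.27, 0.00016), in a range of 0.00016 to 0.36. Against the GFP cells of the same mice (3.20, 3.84 and 3.52 FPKM) it rose by 1.48 ± 0.21 (limma, adjusted p = 0.00030). Control mCherry cells themselves lay above the untreated control GFP cells (3.40, 3.33 and 4.14 FPKM). Egfr was at 144, 182 and 87.5 FPKM against 165 and 226 FPKM (-0.55, adjusted p = 0.41), and Erbb3 at 26, 63.2 and 27.2 FPKM against 44.6 and 37.6 FPKM (adjusted p = 0.83). The receptor groups overlapped.

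Ereg was close to absent elsewhere in the liver but measurable in caMEK1 mCherry cells. It was at 0.858, 1.07 and 0.669 FPKM there (50, 47 and 33 reads), while the other 20 liver libraries held 0 to 2 reads each. Areg was at 0.641, 0.233 and 0.207 FPKM in the same cells, from 11, 3 and 3 reads, and outside the mCherry cells of both kinases no liver library held more than 3 reads of it. Nrg1 was at 0.289, 0.177 and 0.472 FPKM in caMEK1 mCherry cells and at most 0.143 FPKM outside the mCherry cells of both kinases. Erbb2 lay between 0.0334 and 0.514 FPKM in all liver libraries, and Epgn was at 0 reads in all but 1, which held 2. None of these passed the filter. Without it Ereg was called in caMEK1 mCherry cells (0.88 ± 0.06, limma, adjusted p = 3.3e-08), also against GFP cells of the same mice (0.87, 2.3e-08). The spread behind these p-values is shared with liver groups near 0 reads, so they do not measure the spread between caMEK1 mice alone. Nrg1 was called in caMKK6 mCherry cells, at 0.206 and 1.17 FPKM (0.64, adjusted p = 0.012). Intervals or floors from such counts would cover counting error only.

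Markers of bile duct cells were higher in caMEK1 mCherry cells (27.8 to 113 FPKM summed over 5 genes, 2 of them at 1 FPKM or more) than in control mCherry cells (9.05 to 13.4 FPKM), and neutrophil markers were also higher (4.5 to 22.5 against 1.07 to 1.76 FPKM). Their part in the changes of Hbegf, Btc, Tgfa and Ereg was not tested. Macrophage markers (9 to 18.8 against 14.2 to 21.4 FPKM) and endothelial markers (15.4 to 36.0 against 39.7 to 39.9 FPKM) were not higher in these cells, and the hepatocyte sum was 69625 to 102269 against 39649 to 39758 FPKM.

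In caMKK6 mCherry cells of the liver, Btc, Hbegf and Erbb3 rose, 3 of the 5 members tested, against 38.2% of all genes called, 75.7% of those upward, or 39.4% with median scaling. Btc reached 56.0 and 24.7 FPKM (3180 and 1246 reads) in the 2 mice, its highest group mean in the series, against 0.357 and 0.632 FPKM in control mCherry cells. The groups were far apart, with a log2 fold change of 4.68 ± 0.54 (limma, adjusted p = 1.7e-05), or 4.37 (4.3e-05) with median scaling. Hbegf was at 0.954 and 1.56 FPKM against 0.167 and 0.135 FPKM (0.96 ± 0.25, adjusted p = 0.0079; median scaled 0.79, 0.026). That call was lost without control replicate 2 (0.054) and without caMKK6 replicate 2 (0.058), in a range of 0.0014 to 0.058.

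Erbb3 was at 246 and 61.4 FPKM in caMKK6 mCherry cells against 44.6 and 37.6 FPKM, and its call rests on 1 mouse. The log2 fold change of 1.57 ± 0.60 (adjusted p = 0.048) became 0.57 (0.54) without caMKK6 replicate 1. It was also lost with median scaling (1.16, 0.16), voom (0.050), no filter (0.079), the other comparator (0.11) and without either control library (0.11 and 0.18), in a range of 0.0057 to 0.54. GFP cells of that mouse were also high in Erbb3 (179 FPKM) and Egfr (287 FPKM), and its mCherry cells held less of the transgene (216 FPKM) than those of the other mouse (1211 FPKM). Egfr was at 206 and 58.3 FPKM in the mCherry cells (-0.81, adjusted p = 0.21; -1.71 and 0.022 without replicate 1, in a range of 0.022 to 0.91), and Tgfa at 7.48 and 6.98 FPKM (adjusted p = 0.98). Areg was at 0.0655 and 5.67 FPKM (1 and 77 reads), so its call without the filter (1.41 ± 0.48, adjusted p = 0.045) comes from 1 mouse.

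The kinases were compared directly in liver mCherry cells, with kinase and dose inseparable. Of the 5 members tested, 1 was higher with caMEK1 and 2 with caMKK6, against 31.7% of all genes called. Tgfa missed the threshold (0.61, adjusted p = 0.056) and passed with median scaling (1.00, 0.0042, in a range of 0.0025 to 0.22), higher with caMEK1. Hbegf was higher with caMEK1 (log2 difference 2.11 ± 0.23, limma, adjusted p = 4.8e-06; median scaled 2.41, 1.2e-06). Btc was higher with caMKK6 (-2.94 ± 0.49, adjusted p = 0.00038; median scaled -2.56, 0.0019). The caMKK6 excess of Erbb3 (-1.76 ± 0.55, adjusted p = 0.021) was lost with median scaling (-1.34, 0.12), quantile normalization (0.093) and without caMEK1 animal 3 (0.070), in a range of 0.0039 to 0.34.

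**Figure D3:**
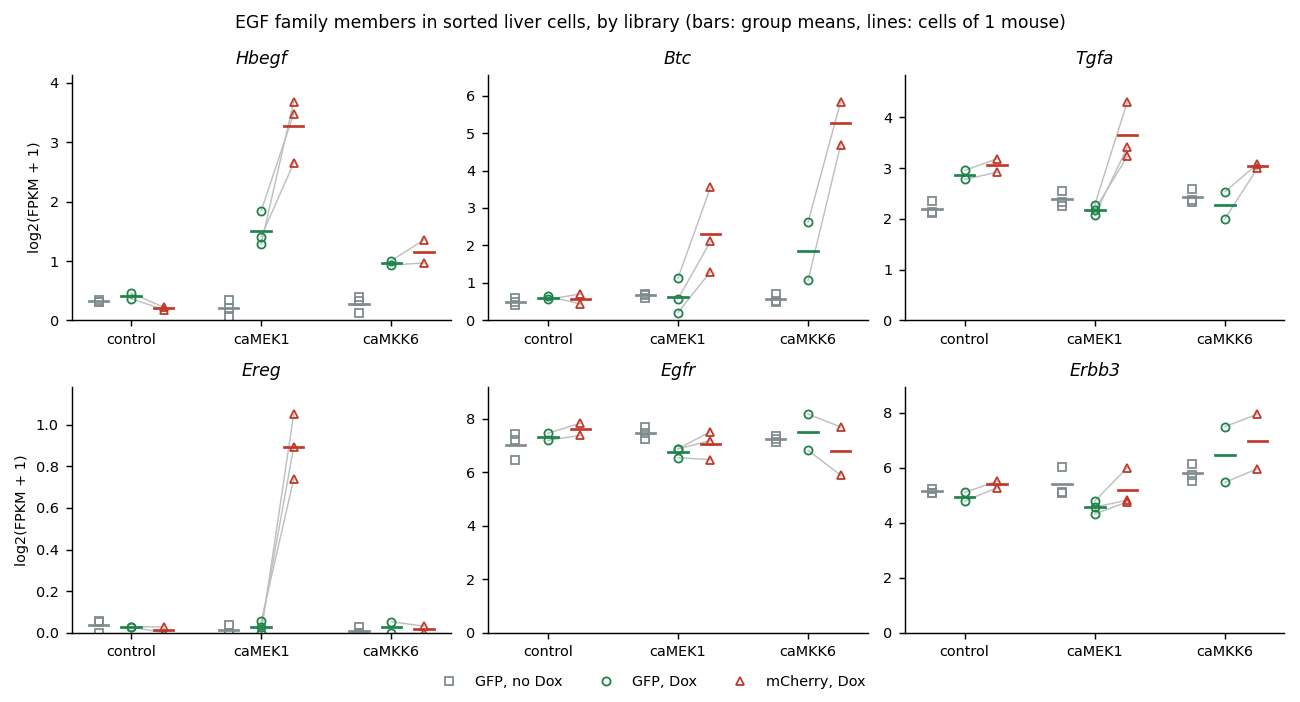
log2(FPKM + 1) of 6 members in liver, by genotype. Symbols are libraries (grey squares, GFP without doxycycline; green circles, GFP with it; red triangles, mCherry with it), short bars are group means and thin lines join cells of 1 mouse. Hbegf and Ereg stand out in caMEK1 mCherry cells and Btc in caMKK6 mCherry cells. Erbb3 is high in both colours of 1 caMKK6 mouse.

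In the GFP neighbours of the liver, Hbegf rose in mice of either kinase. With caMEK1, 1 of the 5 members rose, against 38.5% of all genes called. Hbegf was at 1.44, 2.59 and 1.66 FPKM with doxycycline and 0.274, 0.0366 and 0.156 FPKM without it, and the groups did not overlap. The log2 fold change was 1.31 ± 0.21 (limma, adjusted p = 0.00017; median scaled 1.51, 7.7e-05). These GFP cells held 12.2%, 25.5% and 31.5% of the Hbegf of the mCherry cells of their own mouse, against 0.942%, 4.28% and 2.24% of the transgene. After that carried-over share was subtracted the log2 fold change was 1.2 (limma, adjusted p = 0.00023, in a range of 2.8e-05 to 0.0020 over its alternatives). The share rests on transgene levels of 0.133, 0.238 and 0.199 FPKM in the GFP cells, so it is imprecise. The mCherry reporter was at 1.33, 0 and 0.332 FPKM in those GFP cells and at 12.2, 4.24 and 6.59 FPKM in their mCherry cells. Subtraction in proportion to the reporter was not tested. Macrophage markers were at 29.3 to 318 FPKM in the caMEK1 GFP libraries on doxycycline, against 8.06 to 74.3 FPKM in untreated GFP libraries. Neutrophil markers were at 8.26 to 52.2 FPKM in the same libraries on doxycycline, and no untreated value is given here. The part of these markers in the Hbegf rise was not tested.

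With caMKK6, again 1 member rose in GFP cells, against 19% of all genes called. Hbegf was at 0.911 and 1.01 FPKM against 0.252, 0.0878 and 0.317 FPKM (0.69 ± 0.23, adjusted p = 0.044). The call was lost with the animal as a block (0.058), without the filter (0.066), with quantile normalization (0.094), against control GFP cells on doxycycline (0.13) and in 4 of 5 runs with 1 library left out, in a range of 0.0095 to 0.22. Btc was at 5.18 and 1.10 FPKM against a mean of 0.486 ± 0.118 FPKM and missed the threshold (1.28 ± 0.49, adjusted p = 0.077), while it passed with the block (0.047, in a range of 0.0091 to 0.69). GFP cells held 9.25% and 4.45% of the Btc of their mCherry cells, against 0.698% and 2.55% of the transgene.

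Between the colours of the same caMEK1 mice, 3 members were higher in mCherry cells, against 4.71% of all genes called. With the animal as a block, limma gave adjusted p-values of 0.0021 for Hbegf, 0.0029 for Tgfa and 0.0042 for Btc. The values that follow are from the main fit, which takes the colours of a mouse as separate libraries. Hbegf differed by 1.76 ± 0.21 (limma, adjusted p = 3.9e-05), Tgfa as given above, and Btc by 1.68 ± 0.44 (adjusted p = 0.036; lost without the filter, 0.059, with voom, 0.088, and in 4 of 6 runs with 1 library left out, in a range of 0.0035 to 0.25). In caMKK6 mice 1 member, Btc, was higher in mCherry cells, by 3.41 ± 0.54 (adjusted p = 0.0016; median scaled 3.13, 0.0053), against 4.28% of genes called.

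Doxycycline itself was examined in GFP cells of control mice. In liver 0 of the 5 members were called by limma, against 0.0868% of all genes, and 1 of them, Tgfa, had an unadjusted p below 0.05 (6.76 and 5.87 FPKM with doxycycline, 3.40, 3.33 and 4.14 FPKM without). Voom called 0 of the 5. These GFP libraries also held the mCherry reporter at 678 and 750 FPKM.

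Of the 40 pathway genes tested in liver, 10 rose and 1 fell in caMEK1 mCherry cells, and 12 rose and 0 fell in caMKK6 mCherry cells, where 27.1% and 38.2% of all genes were called, with medians of 0.17 and 0.55 against -0.04 and 0.25 over all genes. Nrg4, a neuregulin that binds ErbB4, went from 0.894 ± 0.068 to 5.24 ± 0.262 FPKM with caMEK1 (1.72, limma, adjusted p = 0.027) and to 24.3 ± 25.0 FPKM with caMKK6 (3.26, adjusted p = 0.00082). With caMKK6 the SD exceeded the mean, so the mice differed widely in Nrg4 and the size of its rise is uncertain. Rhbdf1, a partner of ADAM17, went from 0.455 to 4.26 FPKM with caMEK1 (1.79, limma, adjusted p = 0.00082), and Frmd8 rose by 1.31. Mean Nrg4 and Rhbdf1 lay below the filter level of 1 FPKM in control mCherry cells. Whether these genes were tested only through libraries of the kinase mice was not examined. With caMKK6, the ubiquitin ligase gene Cblc went from 4.88 to 19.8 FPKM (1.71). Nrg4 also rose in the GFP cells of caMEK1 mice (0.666 to 7.02 FPKM, 2.28, adjusted p = 0.0018) and of caMKK6 mice (2.88, adjusted p = 0.0028). Socs3, a feedback inhibitor of cytokine and receptor signalling, rose in the GFP cells of both kinases, from 4.33 ± 2.29 to 24 ± 5.29 FPKM with caMEK1 (2.32, adjusted p = 0.0024) and from 6.88 ± 3.44 to 50.6 ± 35.3 FPKM with caMKK6 (2.61, adjusted p = 0.0066). In control GFP cells limma called 0 of the 40.

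In colon, 8 members passed the filter (over 11542 genes), and Epgn and Nrg1 did not. Nrg1 reached at most 0.0410 FPKM. The members were chosen with earlier results of these data known, so the colon counts below are descriptions. In caMEK1 mCherry cells, Ereg, Tgfa, Btc and Egfr rose, 4 of the 8, against 21.5% of all genes called. Scaling to a common median moved the median change by 0.11 in this comparison and in mCherry against GFP cells of these mice, and by 0.12 in the control comparison.

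Ereg was at 7.88 and 13.8 FPKM (267 and 458 reads) in caMEK1 mCherry cells and at 0.809 and 1.66 FPKM in control mCherry cells. No other colon library exceeded 3.81 FPKM. The log2 fold change was 2.38 ± 0.47 (limma, adjusted p = 0.0014). Tgfa was at 13.5 and 19.0 FPKM against 7.12 and 7.72 FPKM (1.02 ± 0.22, adjusted p = 0.0036), and no other colon library exceeded 9.33 FPKM. Btc was at 3.43 and 7.57 FPKM against 1.28 and 0.820 FPKM (1.60 ± 0.35, adjusted p = 0.0036). Egfr was at 12.7 and 27.4 FPKM against 8.77 and 9.16 FPKM (0.99 ± 0.27, adjusted p = 0.016), in contrast to its fall in caMEK1 MEFs, a difference that was not tested. In all 4 genes the groups did not overlap.

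The second caMEK1 mouse was the higher one in each of these genes. Without its library Ereg was still called (adjusted p at most 0.040 over all alternatives), and the calls of Tgfa (0.086), Btc (0.10) and Egfr (0.32, with a log2 fold change of 0.46) were lost; the lowest adjusted p over all alternatives was 0.00025 for Tgfa and 0.0014 for Btc. Egfr was also lost without control animal 8 (0.053) and without either control library (0.066 and 0.063), in a range of 0.00085 to 0.32. Goblet cell markers were lower in caMEK1 mCherry cells (371 to 475 FPKM summed, 4 of 4 genes detected) than in control mCherry cells (1286 to 3747 FPKM), and epithelial markers higher (6824 to 6943 against 3551 to 5670 FPKM), and their part in these changes was not tested. Fibroblast markers were at 0.650 to 1.18 FPKM there, with Col1a1, Col1a2, Col3a1 and Thy1 at 0, and endothelial markers at or below 0.0979 FPKM.

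Areg and Hbegf, the ligands with the highest levels in colon, were not called. Areg was at 129 and 127 FPKM in caMEK1 mCherry cells, and at 154 and 26 FPKM in the control mice (1.00 ± 0.92, adjusted p = 0.47). Hbegf was at 56.0 and 64.4 FPKM against 84.8 and 19.6 FPKM (0.54, adjusted p = 0.59; 1.57 and 0.040 without control animal 8, in a range of 0.040 to 0.78). Control animal 8 was high in both genes and both colours (190 FPKM Areg and 73.4 FPKM Hbegf in its GFP cells), and for both genes the 2 control mice lay on either side of the caMEK1 libraries. Erbb2 (84.3 and 65.0 against 55.4 and 51.5 FPKM, adjusted p = 0.30) and Erbb3 (169 and 146 against 93.3 and 97.1 FPKM, adjusted p = 0.094) did not pass either, although in both the groups were apart. Erbb3 passed with median scaling (0.86, 0.045) and against untreated GFP cells (0.94, 0.015), in a range of 0.015 to 0.28.

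Between the colours of the same caMEK1 mice, Ereg (2.64 ± 0.47, limma, adjusted p = 0.00094), Tgfa (0.96 ± 0.22, 0.0076) and Egfr (1.06 ± 0.27, 0.015) were higher in mCherry cells, 3 of 8 against 13.4% of all genes called. With the animal as a block 7 members were called, where that fit called 2607 of 11542 genes and the main fit 1550. Areg (1.70, adjusted p = 0.0050 against 0.23), Hbegf (1.04, 0.011 against 0.31), Btc (1.04, 0.046 against 0.058) and Erbb3 (0.80, 0.020 against 0.083) joined the 3 members above. Areg was at 31.1 and 48.0 FPKM in the GFP cells of the mice with 129 and 127 FPKM in mCherry cells. Without caMEK1 mCherry replicate 2, or without GFP replicate 1, the calls of Tgfa (0.18 and 0.10) and Egfr (0.40 and 0.19) were lost and 1 member, Ereg, was called.

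In caMKK6 mCherry cells of the colon, 1 of 8 members, Btc, rose against control mCherry cells, against 20.8% of all genes called. It was at 7.50, 1.95 and 3.24 FPKM against 1.28 and 0.820 FPKM (1.22 ± 0.32, limma, adjusted p = 0.012; 0.096 without control replicate 2, in a range of 0.0022 to 0.096). Hbegf was at 20.9, 21.8 and 16.0 FPKM against 84.8 and 19.6 FPKM, and its log2 difference of -1.04 (adjusted p = 0.23) became -2.07 (0.041, in a range of 0.041 to 1.0) without control replicate 2, so that it turns on the spread between the 2 control mice. Against GFP cells of the same mice, 2 members were higher, Tgfa (0.53 ± 0.18, adjusted p = 0.047) and Btc (0.87 ± 0.29, 0.038), against 21.3% of genes called. Both were lost without the filter (0.062 and 0.063) and in 4 of 6 runs with 1 library left out, in ranges of 0.027 to 0.21 and 0.0074 to 0.19, and Btc also with voom (0.068). Ereg passed with the block (0.97, adjusted p = 0.010 against 0.078, in a range of 0.010 to 0.28).

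Epgn, which lay near 0 everywhere else, was measurable in caMKK6 mCherry cells of the colon. It was at 1.51, 0.873 and 0.884 FPKM (21, 17 and 24 reads), while the other 20 colon libraries held 0 to 7 reads and at most 0.343 FPKM, and GFP cells of the same mice 0.130, 0 and 0 FPKM. It did not pass the filter. Without the filter it was called against control mCherry cells (log2 fold change 0.76 ± 0.11, limma, adjusted p = 0.00041) and against GFP cells of the same mice (0.99 ± 0.10, 1.5e-05), and it was higher than in caMEK1 mCherry cells (adjusted p = 0.00033). The spread behind these p-values is shared with colon groups near 0 reads, so they do not measure the spread between caMKK6 mice alone. Enteroendocrine markers were higher in the caMKK6 mCherry libraries (88.7 to 180 FPKM) than in control mCherry cells (19.8 to 45.6 FPKM). Their part in the Epgn level was not tested.

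The direct comparison of the kinases in colon mCherry cells called 3 of 8 members higher with caMEK1, against 20.7% of all genes. They were Ereg (1.98 ± 0.43, limma, adjusted p = 0.0031), Tgfa (0.80 ± 0.21, 0.0095) and Egfr (1.32 ± 0.25, 0.0012), and all 3 calls were lost without caMEK1 replicate 2 (0.074, 0.18 and 0.063, the highest over their alternatives). With the animal as a block Hbegf (1.58, 0.037 against 0.064) and Erbb3 (0.75, 0.0495 against 0.060) passed as well, Erbb3 also with median scaling (0.84, 0.035, in a range of 0.035 to 0.25).

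In the GFP neighbours of the colon, 0 of 8 members were called with caMEK1, against 1.33% of all genes, and 0 with caMKK6, against 2.6%. These libraries held 4.27% and 12.2% of the transgene level of their mCherry cells with caMEK1, and 0.527% to 4.37% with caMKK6. At an unadjusted p below 0.05 limma gave 0 and 1 member (Ereg with caMKK6, 0.515 ± 0.370 against 1.73 ± 0.465 FPKM), and voom called 0 in both. In control GFP cells with doxycycline, 0 members and 0% of all genes were called, with 0 members at an unadjusted p below 0.05, and voom called 0. Areg was at 190 and 19.4 FPKM in those control mice against 17.4, 19.3 and 56.8 FPKM without doxycycline; without the second mouse (control replicate 2 on doxycycline) Areg (2.78, adjusted p = 0.049) and Hbegf (2.34, 0.025) passed, in ranges of 0.049 to 1.0 and 0.025 to 1.0 over their alternatives.

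**Figure D4:**
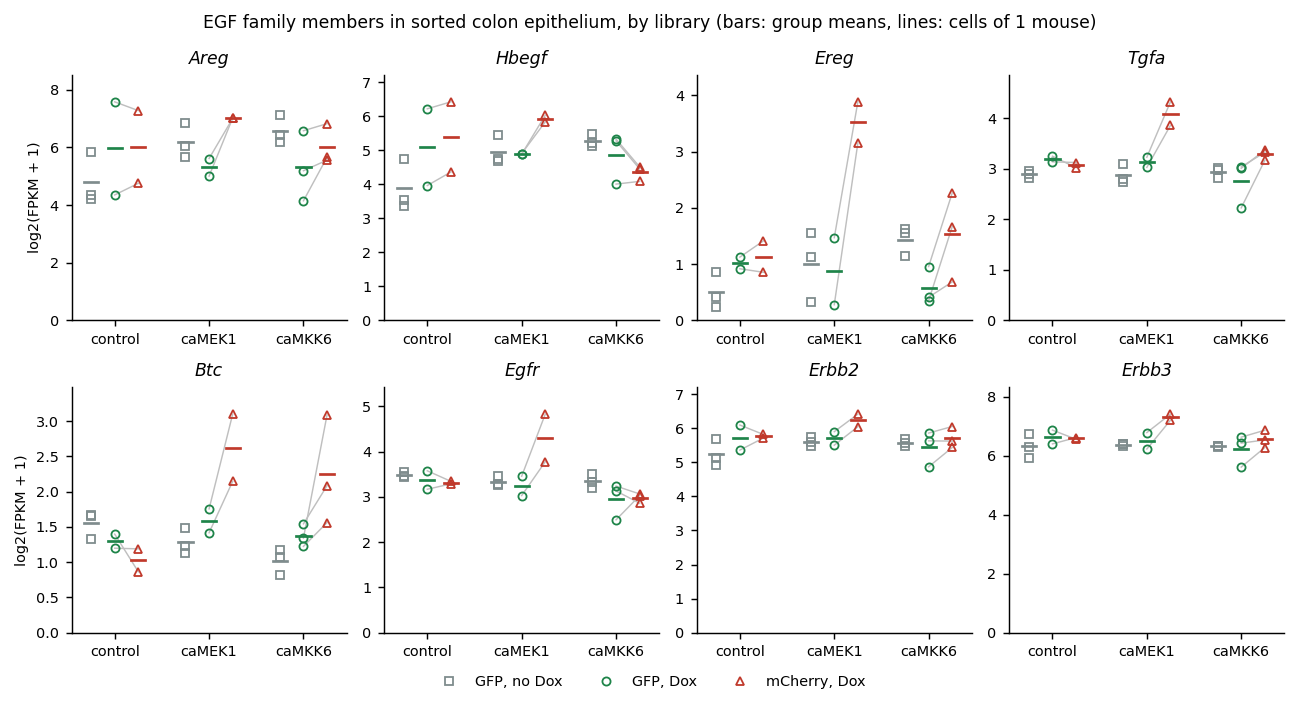
log2(FPKM + 1) of 8 members in colon epithelium, by genotype, with symbols, bars and lines as in the liver plot. Ereg, Tgfa and Egfr are highest in the 2 caMEK1 mCherry libraries. Areg and Hbegf spread widely between control mice, and the colours of 1 control mouse are both high.

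Areg and Hbegf moved together between untreated mice. Over the 9 untreated GFP libraries of the colon, 3 of each genotype, Pearson's r of log2(FPKM + 1) was 0.98 (exact permutation p = 0.00018, adjusted p = 0.0069 over 38 relations between members in colon and liver) and Spearman's rho was 0.97 (exact permutation p = 0.00017). Without the 2 libraries farthest from the median in Areg, r was 0.93. Within each genotype the library highest in Areg was also highest in Hbegf, at 56.8 and 25.6 FPKM, 114 and 42.9 FPKM, and 137 and 43.3 FPKM. The libraries share the tissue preparation of each mouse. Mean Areg was 31.2, 76.3 and 98.3 FPKM in untreated control, caMEK1 and caMKK6 mice, and mean Hbegf 15.2, 31.1 and 37.7 FPKM. The permutations ran across genotypes, so their p-values do not separate differences between mice from differences between genotypes. None of the other relations passed the adjustment, the next smallest p being that of Areg with Egfr (r = -0.76, adjusted p = 0.21).

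Of the 40 pathway genes tested in colon, 6 rose and 13 fell in caMEK1 mCherry cells, where 9.54% of all genes rose and 12% fell, with a median of -0.28 against -0.14 over all genes. In caMKK6 mCherry cells 5 rose and 3 fell, against 20.8% of all genes called. Cblc went from 23.8 ± 4.5 to 77.8 ± 10.7 FPKM with caMEK1 (1.68, limma, adjusted p = 0.00032), and Eps8, an EGFR substrate, from 15.6 to 52.7 FPKM (1.66). The gene of the PI3-kinase subunit Pik3r1 went from 30.9 to 9.19 FPKM (-1.67), and Timp3 fell by 1.44 from a low level. Pik3r1 also fell with caMKK6, by 1.26. In GFP cells, 1 of the 40 rose and 0 fell with caMEK1, and 1 rose and 2 fell with caMKK6, against 1.33% and 2.6% of all genes called. The gene that rose was Socs3 in both, from 2.50 ± 0.986 to 16.6 ± 1.26 FPKM with caMEK1 (2.36, adjusted p = 0.0013) and from 3.45 ± 1.39 to 11.2 ± 3.57 FPKM with caMKK6 (1.47, adjusted p = 0.021).

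Over all 26 groups, the group with the highest mean varied between the members. How many of all genes peak in cells with an induced kinase was not counted, so nothing is read from these places. Areg was highest in caMEK1 MEFs at day 4 (187 FPKM), Ereg (63.9 FPKM) and Hbegf (84.3 FPKM) in caMEK1 MEFs at day 2, Nrg1 in caMEK1 MEFs at day 7 (3.07 FPKM) and Tgfa in caMEK1 mCherry colon cells (16.3 FPKM). Btc was highest in caMKK6 mCherry liver cells (40.3 FPKM) and Epgn in caMKK6 mCherry colon cells (1.09 FPKM). Erbb2 (74.7 FPKM) and Erbb3 (158 FPKM) were highest in caMEK1 mCherry colon cells, and Egfr in GFP cells of caMKK6 livers (199 FPKM), which overlapped control mCherry cells (196 FPKM). Most neighbours in these orders overlapped: of the 25 neighbouring pairs of groups, between 19 (Ereg and Nrg1) and 24 (Epgn and Erbb3) had overlapping ranges. For Btc the top group lay apart from the second, caMEK1 MEFs at day 4 (19.6 FPKM), while for Hbegf, Tgfa, Egfr, Erbb2 and Erbb3 the top groups overlapped the next.

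**Figure D5:**
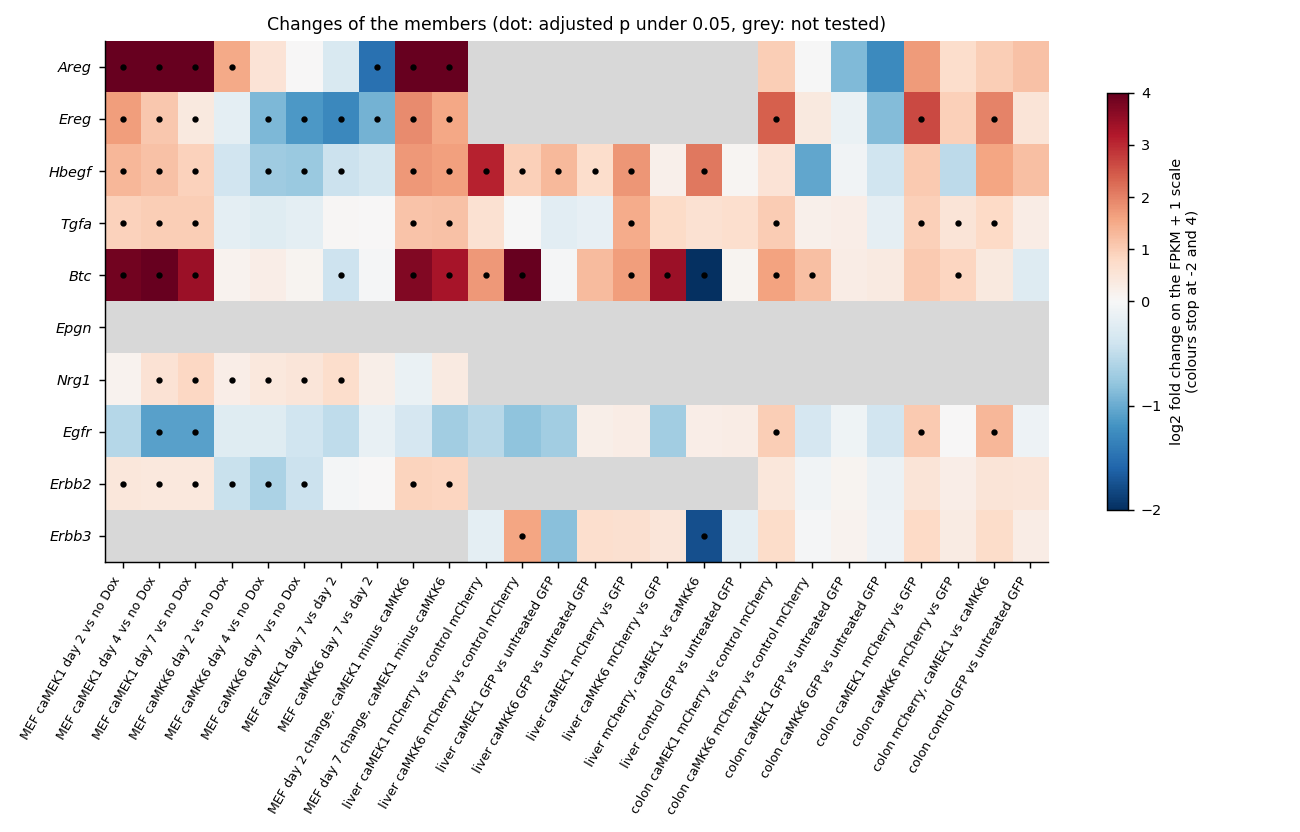
log2 fold changes of the 10 members (colour, FPKM + 1 scale) in the 26 comparisons between groups of 1 tissue, with a dot where the adjusted p was below 0.05 and grey where a member was not tested. Areg and Btc show the largest rises in caMEK1 MEFs, Hbegf the largest in caMEK1 liver and Btc in caMKK6 liver, and Egfr falls in caMEK1 MEFs but rises in caMEK1 colon.

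As a description of which genes ran alongside, the Pearson correlation of group means of log2(FPKM + 1) over the 26 groups was highest for Areg with Ralgds (0.97), for Hbegf with Clip2 and Sertad1 (0.98 and 0.97), for Ereg with Ercc1 (0.97) and for Tgfa with Slc22a23 (0.94). It was highest for Nrg1 with Shc2 (0.99), for Egfr with Proc (0.98), for Erbb2 with Pfkp (0.99) and for Erbb3 with Grb7 (0.99). Btc had no close companion, its best being Bcl2l11 at 0.76. Groups of 1 tissue share that tissue, and how much of each value comes from the tissues was not tested.

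The neighbours of the ligand cluster on chromosome 5 did not all move with it. Within 200 kb, Parm1 fell in caMEK1 MEFs at day 2 (3.17 to 0.923 FPKM, log2 fold change -1.12, limma, adjusted p = 0.0020). Mthfd2l stood at 2.75 and 2.70 FPKM (-0.03, adjusted p = 0.85) and Cxcl1 at 18.4 and 9.94 FPKM (-0.87, adjusted p = 0.20), and Cxcl2 rose from 0.191 to 1.38 FPKM (0.98, adjusted p = 0.00080). In caMKK6 mCherry liver cells, where Btc was highest, Areg averaged 2.87 FPKM from 1 mouse and Ereg 0.0108 FPKM. Cxcl1 fell there against control mCherry cells, from 24.5 to 1.77 FPKM (log2 fold change -3.22, limma, adjusted p = 0.0057, unscaled). Cxcl2, Mthfd2l and Parm1 did not pass the liver filter.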

How the data were processed

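Bulk RNA-seq of 70 libraries was analysed. FPKM values per gene were deposited by the authors in 1 table; per the submitters' processing notes reads were trimmed with cutadapt 1.12 and aligned with STAR 2 to mm10, and the counter and its annotation are not given in the sources used here. Per the labels' protocols 100 ng (MEF) or 50 ng of RNA entered each library. The table holds 21859 genes and 4 transgene or reporter entries.

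The FPKM values were tested as log2(FPKM + 1) with limma 3.58.1 in R 4.3.3 (empirical Bayes with a trend), in 1 fit each for MEF, liver, colon and untreated samples, so that the groups of a fit share 1 estimate of the spread. Genes needed 1 FPKM in 3 libraries (MEF, untreated) or 2 (liver, colon). P-values were adjusted by Benjamini-Hochberg over all genes of a fit and called below 0.05; all limma tests were two-sided. Fold changes on this scale understate the change of low genes. Summaries used Python 3.11.15 with pandas 2.3.3 and scipy 1.17.1. The fits were tested on simulated data.

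Whole reads were recovered from the FPKM values with GENCODE M21 exon lengths (21191 of 21859 gene IDs matched; values within 0.02 of a read counted as whole). The ID of Nrg1 has no such length, so it has no read counts and was left out of voom, which ran on these reads as an alternative added after seeing the data. Depth limits precision for members with few reads.

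Replicate numbers were taken to pair MEF libraries, since same-numbered libraries deviated together (correlations of 0.112 to 0.657), and the colours of 1 mouse share the animal (0.462 to 0.817 in liver, 0.396 to 0.707 in colon); fits with that block were alternatives. Other alternatives were a pseudocount of 0.1, no filter, median scaling, quantile normalization, another comparator, subtraction of RNA carried over into GFP cells in proportion to the transgene, and leaving out each library, the caMKK6 MEF libraries with more than 5 FPKM of the MEK1 transgene, caMEK1 liver animal 3 or, added after seeing the data, colon control animal 8. Where an arm was left with a lone library it was assumed to vary like the other groups.

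The members and the lists of pathway genes and markers were chosen with earlier results of these data known. All 10 members were named in every tissue; of the pathway lists, counts and up to 4 called genes per comparison with the largest changes, with a few further genes named after their values were seen. Companions in expression were those with the highest correlation among genes of 5 FPKM or more in a group, without predicted genes or duplicated symbols. The companion of Epgn is not reported here.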

Additional observations from a re-analysis of the deposited data

Results flagged for a closer look

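The change with caMEK1 and the change with caMKK6 differed in MEFs at day 2 for Areg (log2 difference 4.03), Btc (3.70), Ereg (1.88), Hbegf (1.73), Tgfa (1.13) and Erbb2 (0.90), in each case by the limma test of the difference itself. At day 7 the same test gave 5.21 for Areg, 3.31 for Btc, 1.65 for Hbegf, 1.53 for Ereg, 1.16 for Tgfa and 0.85 for Erbb2. All 12 were higher with caMEK1 and were called in every alternative run. Btc and Tgfa passed the filter only through the caMEK1 libraries on doxycycline, so nothing is read from their calls holding.

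In liver mCherry cells the kinases differed in Hbegf (2.11, higher with caMEK1) and in Btc (-2.94) and Erbb3 (-1.76), both higher with caMKK6. The Erbb3 difference was -0.77 (adjusted p = 0.34) without caMKK6 replicate 1, and its call was lost in 3 of 5 runs with 1 library left out and in 3 of 7 other alternatives. In colon mCherry cells they differed in Ereg (1.98), Egfr (1.32) and Tgfa (0.80), all higher with caMEK1, and all 3 calls were lost without caMEK1 replicate 2 (adjusted p = 0.074, 0.063 and 0.18). In both tissues the dose of doxycycline differed along with the kinase and the contributions cannot be told apart.

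The MEK1 transgene was read above 5 FPKM in 5 of the 12 caMKK6 MEF libraries, whose labels name the other kinase. The Areg rise at day 2 of caMKK6 was larger without those libraries (log2 fold change 2.05 against 1.51).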

How the results depend on the processing

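Counts of called members stayed within 1.5 times the main count in most alternatives, and the exceptions follow. In caMKK6 MEFs at day 2, 1 member was called in place of 3 without the libraries that hold the MEK1 transgene. In liver, caMEK1 mCherry cells had 1 in place of 2 with voom. Liver caMEK1 GFP cells had 2 in place of 1 with another comparator, and caMKK6 GFP cells had 2 with a pseudocount of 0.1 and 0 without the filter, with quantile normalization or with another comparator, in place of 1. Liver caMKK6 mCherry against GFP cells had 2 in place of 1 without the filter, as had colon caMKK6 mCherry cells, the members gained being Nrg1 and Epgn. In colon caMEK1 mCherry against GFP cells, 5 were called with median scaling or with carried-over RNA subtracted and 7 with the replicate block, in place of 3. These fits called 1548, 1852 and 2607 of 11542 genes, against 1550 in the main fit. In colon caMKK6 mCherry against GFP cells 1 was called in place of 2 without the filter or with voom, and between the kinases in colon the replicate block gave 5 in place of 3. The cause of these changes was not tested, other than that the MEF alternative has fewer libraries.

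With 1 library left out, counts ranged from 2 to 4 for caMKK6 MEFs between days 7 and 2. In liver they ranged from 1 to 3 for caMEK1 and caMKK6 mCherry cells, 0 to 2 for caMKK6 GFP cells and 1 to 2 for caMKK6 mCherry against GFP cells. In colon they ranged from 1 to 4 for caMEK1 mCherry cells and for these against GFP cells, 0 to 2 for caMKK6 mCherry against GFP cells, 0 to 4 between the kinases and 0 to 2 for control GFP cells.

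Between untreated colon and liver, Tgfa turned from 0.56 to -0.52 with median scaling and -0.48 with quantile normalization, Btc from 0.71 to -0.21 with quantile normalization, and Erbb3 from 0.89 to -0.37 with median scaling. The replicate block changed no call of a member other than those given in the results. Groups of 2 mice, and members with few reads such as Areg, Ereg and Epgn in liver, limit what could be detected.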

Other observations

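Tff3, which encodes a trefoil factor secreted by goblet cells and known for epithelial repair, rose in the liver of caMEK1 mice; it was singled out after its values were seen. It was at 187 to 244 FPKM in caMEK1 mCherry cells against 1.82 to 2.13 FPKM in control mCherry cells (log2 fold change 6.2 ± 0.47, limma, adjusted p = 6.3e-08, in all 3 caMEK1 mice). In GFP cells of caMEK1 mice it went from 1.75 to 4.66 FPKM without doxycycline to 27.5 to 76.6 FPKM with it (3.75 ± 0.42, adjusted p = 1.1e-05). The other goblet cell markers listed, Muc2, Fcgbp and Clca1, were at most 0.0529 FPKM in the mCherry cells.

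In colon, Hbegf in GFP cells was 180%, 179% and 94.2% of its level in the mCherry cells of the same caMKK6 mice, and 51.6% and 44.3% in the caMEK1 mice. The difference between these shares was not tested.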
